A study of Mus musculus with 30 samples.

Results

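The genes described here encode the nuclear subunits of the mitochondrial respiratory chain and of ATP synthase, measured in whole mouse lung during the first 6 days of low oxygen. A probe set was a member when the array annotation gave it a single gene symbol that began with Nduf, Uqcr, Cox4, Cox5, Cox6, Cox7, Cox8 or Atp5, or that was Sdha, Sdhb, Sdhc or Sdhd. The rule used names only and found 145 probe sets of 36701 on the 3 array types, which stand for 80 of 15965 genes. They comprise 39 genes of complex I, 4 of complex II, 7 of complex III, 16 of complex IV and 14 of complex V. The Nduf genes include 7 named Ndufaf, which encode factors that help to assemble complex I and are no subunits of it. No single-symbol probe set was found for Cox4i2, Ndufa4, Ndufa4l2 or Atp5g3, so these genes have no value here. 115 of the 145 probe sets and 77 of the 80 genes lay above the detection floor on at least 2 arrays and were tested. Cox8a, Cox7a1 and Ndufaf2 were not.

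Hypoxic animals lived in a chamber at 10% oxygen, and their lungs were taken after 10 h, 2 d, 4 d or 6 d. The remaining group is titled Norm, which does not spell out its treatment and whose description speaks of a rejection. The labels give total RNA from murine lung, and no strain, age or genotype. By the titles there were 2 samples in a group, with the letters 1a and 1b. Each was run on the A, B and C arrays of the Affymetrix MG-U74 version 2 set, which carry different probe sets. Nothing in the labels tells whether 1a and 1b were different animals, so the spread behind each p-value is that between samples and may be technical. For genes read on more than 1 array type, differences between 1a and 1b barely agreed between types (correlations -0.0794 to 0.0864 by group). The link between the A, B and C arrays of a sample therefore rests on their titles. The A-titled Norm 1a array stood among the B arrays in the deposited tables and did not correlate with them (Spearman rho -0.00277 to 0.00963). It was left out, so a gene read on A was compared with 1 Norm array (1b) and a gene read on B or C with both. The comparisons with Norm therefore share their Norm arrays, and a value far out on those arrays moves all of them.

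Complexes I and II feed electrons from NADH and from succinate into the chain, complex III passes them to cytochrome c, and complex IV gives them to oxygen. Complexes I, III and IV pump protons as they do so, and complex V, the ATP synthase, makes ATP as the protons flow back. Most subunits are encoded in the nucleus, and some subunits of complex IV have one isoform for most tissues and another for heart and skeletal muscle. In many cells low oxygen is known to shift metabolism from the chain to glycolysis through the hypoxia-inducible factors, partly by exchanging subunit isoforms such as Cox4i1 for Cox4i2.

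The 2 d arrays stood apart in their RNA controls. The 3' to 5' signal ratio of Gapdh, which is higher where RNA is degraded or copied incompletely, was 3.64 to 4.60 on the 6 arrays of the 2 d group and 0.786 to 1.68 on the other 23. The ratio of Actb was 3.64 to 4.98 at 2 d and 0.0272 to 1.66 elsewhere. Outside 2 d it was uneven, at 0.0453 to 0.926 on the Norm arrays used and 0.0430 to 0.517 at 10 h. At 4 d it was 0.0272 to 0.613 and at 6 d 0.474 to 1.66. The deposited samples run in an order that keeps 2 d and 6 d together and apart from the other groups. The labels name no batch, and such a batch and the time cannot be told apart. Levels of cell type markers differed too. The summed intensity of 13 heart muscle genes on the A arrays was 22243 and 24091 at 10 h, 15655 and 16939 at 2 d, 22361 and 24697 at 4 d and 18680.0 and 20860.4 at 6 d, against 28708 on the Norm array. The sum of 5 alveolar type 2 cell genes on the A arrays at 2 d was 71905 and 76971, against 53158 on the Norm array. Sftpc, which encodes a surfactant protein, made up 36691 and 42808 of it at 2 d and 7199 on the Norm array, and 5 of the 8 tested genes of the list were lower than Norm at 2 d (median -0.11). The part of RNA quality and of cell types in the results below was not tested. In whole lung, fewer cells of a type and less RNA per cell cannot be told apart.

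Compared with Norm, no respiratory chain probe set passed the test at 10 h, 2 d, 4 d or 6 d (limma, Benjamini-Hochberg adjusted p over all 25801 tested probe sets). The smallest adjusted p among the 115 members was 0.693 at 10 h, where 0% of all tested probe sets were called. It was 0.0804 at 2 d, where 1.86% of all were called. At 4 d it was 0.699, with 0.00775% of all called, and at 6 d 0.378, with 0% of all called. At an unadjusted p under 0.05, 3 member probe sets (2.61%) stood out at 10 h, against 6.11% of all tested probe sets. At 2 d there were 20 (17.4%, 15 of them higher), against 18.9% of all. At 4 d there was 1 (0.870%) against 6.13%, and at 6 d there were 6 (5.22%, 5 of them lower) against 9.17%. The share of members was thus below the share of all probe sets at each time against Norm, though close to it at 2 d. The shares are not alike in precision. Of the 115 member probe sets 37 were on B and C, against 17409 of all 25801. The rest, on A, had 1 Norm array. With 1 sample left out, 1 member passed at 2 d in 3 cases, which were singled out after their values were seen: a C probe set of Cox7a2 at -1.64 (adjusted p = 0.0421) without Norm 1a, a C probe set of Ndufs1 at -2.70 (adjusted p = 0.0425) without Norm 1b, and Ndufa1, at least 1.15 (adjusted p = 0.0499) without 4 d 1b.

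With 1 probe set for each gene, the median difference of the 77 tested genes from Norm was -0.083 (log2) at 10 h, 0.13 at 2 d, -0.059 at 4 d and -0.050 at 6 d. The median of all tested genes lay within 0.0038 of 0 at each of these times. 28 of the 77 genes were higher than Norm at 10 h, 50 at 2 d, 32 at 4 d and 31 at 6 d. The genes ranged from -0.67 to 0.75 at 10 h, -0.68 to 1.12 at 2 d, -0.88 to 0.58 at 4 d and -1.25 to 0.73 at 6 d. Their median size of difference, sign apart, was 0.121 at 10 h, 0.256 at 2 d, 0.233 at 4 d and 0.155 at 6 d, against 0.182, 0.296, 0.205 and 0.217 for all tested genes at the same times. The 95% interval of the difference lay within 1 log2 unit of 0 for 62 of 77 genes at 10 h, 48 at 2 d, 54 at 4 d and 55 at 6 d, so a change of 2-fold or more was within the error for the others.

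**Figure D1:**
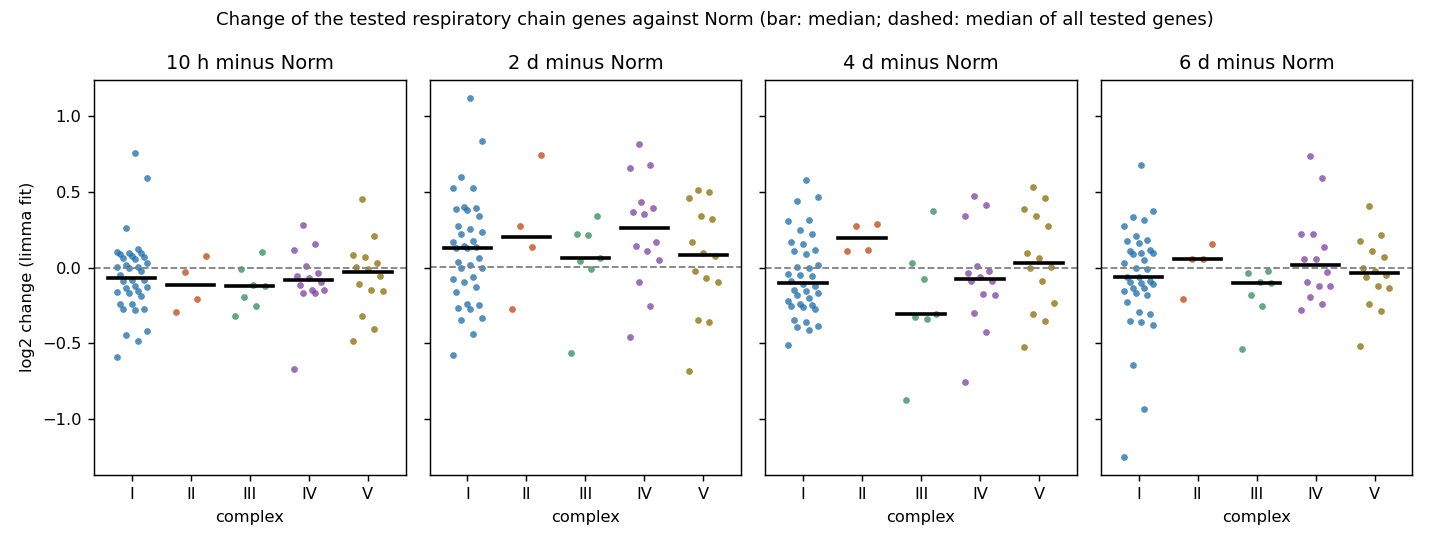
Difference from Norm (log2, vertical axis) of each tested respiratory chain gene at 10 h, 2 d, 4 d and 6 d, grouped by complex; each point is 1 gene read by 1 probe set, bars are medians, and the dashed line is the median of all tested genes. The points of every complex lie on both sides of 0 at most times, and the 2 d medians of the 5 complexes lie between 0.063 and 0.26.

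The 2 d median depended on one of its samples. Relative to each gene's mean over all arrays, the median member gene stood at 0.17 in sample 2 d 1a and 0.046 in 2 d 1b. The 10 h samples stood at -0.090 and -0.055, the 4 d samples at 0.036 and -0.069, the 6 d samples at -0.028 and -0.019, and Norm 1b at 0.0073. Norm 1a, which has values for 16 of these genes only, stood at -0.0016. Both 2 d samples were thus above both 10 h and both 6 d samples, while 1 of the 4 d samples came close to 2 d 1b. Without sample 2 d 1a the median difference between 2 d and Norm was 0.028, and without 2 d 1b it was 0.15. Without sample 4 d 1b the median at 4 d was 0.029, against -0.059 with it. The A array of 4 d 1b stood apart from the other A arrays. Its highest Spearman rho with any of them was 0.913, while the others reached 0.954 to 0.966. The part of this array's quality in the 4 d values was not tested.

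**Figure D2:**
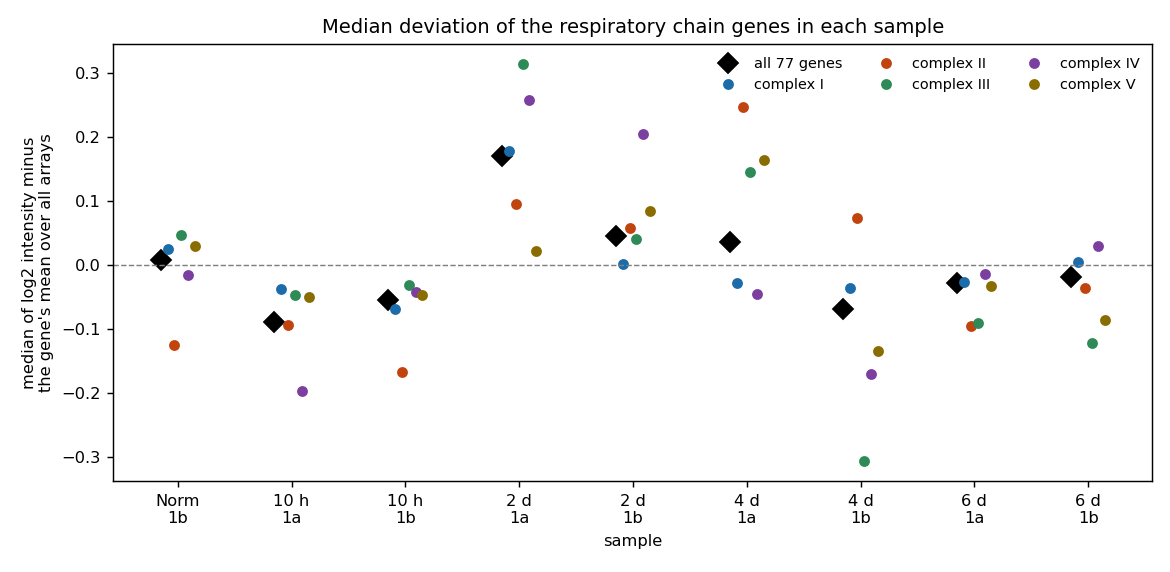
Median deviation of the tested respiratory chain genes from each gene's mean over all arrays (log2, vertical axis) in each sample, from Norm to 6 d, with diamonds for all 77 genes and circles for each complex; Norm 1a has no A array and is not drawn. For all 77 genes sample 2 d 1a is the highest at 0.17, and the lowest are 10 h 1a at -0.090 and 4 d 1b at -0.069.

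Complex I, the NADH dehydrogenase, had 38 tested genes, the 6 tested assembly factors included, and a median difference from Norm of -0.067 at 10 h, 0.13 at 2 d, -0.10 at 4 d and -0.062 at 6 d. At 2 d 23 of the 38 were higher, and without sample 2 d 1a the 2 d median was -0.0090. Ndufa1, an accessory subunit of the membrane arm that is needed for its assembly, had intensities of 178 on the Norm array, 243 and 259 at 10 h, 479 and 550.0 at 2 d, 147 and 361 at 4 d and 394 and 361 at 6 d. The 2 d samples were above every other sample, while the Norm array was under the A floor of 236.05. Against that floor the difference at 2 d was at least 1.12 ± 0.30 (log2 ± SE, adjusted p = 0.0929), and at 6 d it was at least 0.68 ± 0.30 (adjusted p = 0.552). Ndufa2, an accessory subunit of the matrix arm, had 2016 on the Norm array, 2083 and 2029.6 at 10 h, 3018 and 2790.1 at 2 d, 1980.2 and 1760.2 at 4 d and 2242 and 2303 at 6 d. The 2 d samples were again the highest, and the 2 d difference of 0.53 ± 0.16 did not pass (adjusted p = 0.132).

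Ndufa3, another accessory subunit of the membrane arm, had 3600.5 on the Norm array, 3192 and 3376 at 10 h, 5271 and 3938 at 2 d, 2807 and 2613 at 4 d and 4078 and 3686 at 6 d. Both 4 d samples were below the Norm array, although the difference of -0.41 ± 0.20 did not pass (adjusted p = 0.863). The probe set has a suffix that marks probes shared with related sequences. Ndufa6, an accessory subunit of the LYR family, was read by 3 tested probe sets. The C probe set that stands for it had 517 and 408 on the Norm arrays, 715 and 668 at 10 h, 845 and 796 at 2 d, 676 and 597 at 4 d and 542 and 568 at 6 d, and both Norm arrays were below all others. Its difference was 0.59 ± 0.33 at 10 h (adjusted p = 0.903), 0.84 ± 0.33 at 2 d (adjusted p = 0.216) and 0.47 ± 0.33 at 4 d (adjusted p = 0.885). The A probe set of the same gene differed from Norm by -0.51 ± 0.39 at 10 h, so the probe sets disagreed in sign. Ndufb2, an accessory subunit, was higher at 2 d by 0.60 ± 0.20 (adjusted p = 0.159) by the probe set that stands for it, which did not pass the threshold. That probe set also has a suffix for shared probes. The other tested probe sets of Ndufb2 were lower at 2 d. On A the values were 3522 on the Norm array and 2698 and 2736 at 2 d. On C they were 765 and 709 on the Norm arrays and 408 and 789 at 2 d.

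Ndufs1, the large iron-sulphur subunit of the arm that takes electrons from NADH, showed how far probe sets of a gene could part. The C probe set that stands for it had 2629.6 and 1208 on the Norm arrays, 751 and 1861 at 10 h, 1289.8 and 1108 at 2 d, 1919 and 2257 at 4 d and 944 and 596 at 6 d. Both 6 d samples were below both Norm arrays, which themselves differed more than 2-fold. The difference was -0.59 ± 0.47 at 10 h, -0.58 ± 0.47 at 2 d, 0.22 ± 0.47 at 4 d and -1.25 ± 0.47 at 6 d (adjusted p = 0.459 at 6 d). A second C probe set, with a suffix that marks probes shared with related sequences, differed by -1.97 ± 0.52 at 2 d (adjusted p = 0.0828) and -1.49 ± 0.52 at 6 d. The A probe set had 1394 on the Norm array, 1379 and 1245 at 10 h, 1681 and 1247 at 2 d, 1796 and 1776 at 4 d and 1515 and 1343 at 6 d, and differed by 0.054 ± 0.22 at 2 d and 0.033 ± 0.22 at 6 d. The low 2 d and 6 d values of Ndufs1 were thus on the C arrays only. Ndufa12, an accessory subunit, had 1736 and 1394 on the Norm arrays, 1109.7 and 1476 at 10 h, 1115 and 1546 at 2 d, 1149.7 and 1547 at 4 d and 918 and 1085 at 6 d and differed by -0.64 ± 0.27 at 6 d (adjusted p = 0.524), where both samples were below both Norm arrays.

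Of the other complex I genes with the largest differences, Ndufb1 was at -0.48 at 10 h, and Ndufb8 at -0.51 at 4 d, while the 4 d difference of Ndufc2 was at least 0.58, all accessory subunits and none past the threshold. A C probe set of Ndufb6, an accessory subunit of the membrane arm, had 173 and 82.2 on the Norm arrays, 648 and 590.3 at 10 h, 487 and 475 at 2 d, 172 and 764 at 4 d and 496 and 334 at 6 d. The Norm arrays were both under the C floor of 200.93, so the 10 h difference was at least 1.62 ± 0.58 (adjusted p = 0.693), while the A probe set of Ndufb6 differed by 0.072 ± 0.35. Among the assembly factors, Ndufaf6 had 577 and 450.2 on the Norm arrays, 867 and 850.2 at 10 h, 633 and 522 at 2 d, 515 and 473 at 4 d and 139 and 356 at 6 d. Both 10 h samples were above, and both 6 d samples below, all other samples of Ndufaf6. Its difference from Norm was 0.75 ± 0.41 at 10 h (adjusted p = 0.898) and -0.93 ± 0.41 at 6 d (adjusted p = 0.548). The 6 assembly factors had a median of -0.30 at 6 d, where 5 of the 6 were lower than Norm.

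Complex II, succinate dehydrogenase, is the only complex of the chain that is also an enzyme of the citrate cycle, and all of its 4 subunits are encoded in the nucleus. All 4 genes were higher than Norm at 4 d, with a median of 0.20, and 3 of 4 were higher at 2 d, with a median of 0.20. The 2 d median was 0.016 without Norm 1b and 0.057 with the brightest probe set of each gene. No gene of the complex passed the test. Sdha, the flavoprotein that binds succinate, had 663 on the Norm array, 529 and 552 at 10 h, 514 and 587 at 2 d, 793 and 651 at 4 d and 579.8 and 567 at 6 d. Only sample 4 d 1a was above the Norm array, and the 4 d difference was 0.11 ± 0.29. Sdhb, the iron-sulphur subunit, had 909.5 and 712 on the Norm arrays, 582 and 834 at 10 h, 1243 and 1465 at 2 d, 826 and 916 at 4 d and 955 and 844 at 6 d on the B arrays. Every other sample lay below the 2 d samples, and the difference was 0.74 ± 0.24 (adjusted p = 0.138). The A probe set of Sdhb had 2038 on the Norm array, 1994 and 2080.2 at 10 h, 2304 and 1752 at 2 d, 2494 and 2025 at 4 d and 1895 and 2113 at 6 d and differed at 2 d by -0.021 ± 0.22, so the 2 d value rests on 1 of 2 probe sets.

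The membrane anchors Sdhc and Sdhd differed from Norm at 4 d by 0.29 ± 0.22 and 0.28 ± 0.19 on the A arrays. Their other probe sets differed at 4 d by -0.33 ± 0.26 (Sdhc, B arrays) and 0.12 ± 0.45 (Sdhd, C arrays). In the comparison of 4 d with 10 h, which uses no Norm array, the differences were 0.41 ± 0.24 for Sdha, 0.32 ± 0.24 for Sdhb, 0.31 ± 0.18 for Sdhc and 0.20 ± 0.16 for Sdhd. All 4 were higher at 4 d by these probe sets, with adjusted p values of 0.720, 0.783, 0.718 and 0.796. The 4 d median of the complex depends on 1 Norm array: without Norm 1b it was -0.47, over the 3 genes that the B and C arrays read.

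Complex III, the cytochrome bc1 complex, had 7 tested genes. 6 of the 7 were lower than Norm at 10 h, 5 at 4 d and 7 at 6 d, with medians of -0.12, -0.31 and -0.10. All 7 values come from the A arrays and were set against the same single Norm array. At 2 d 5 of the 7 were higher, with a median of 0.063. The 4 d median was -0.12 without sample 4 d 1b, and the 6 d median lay between -0.17 and -0.058 as single arrays were left out. The A array of 4 d 1b was the one that correlated least with the other A arrays. Uqcr11, a small accessory subunit, had 1843 on the Norm array, 1494 and 1595 at 10 h, 1624 and 953 at 2 d, 1546 and 653 at 4 d and 1096 and 1477 at 6 d. Sample 4 d 1b was the lowest of all, and 4 d 1a was close to 10 h, so the 4 d difference of -0.88 ± 0.49 (adjusted p = 0.878) rests on 1 sample. At 6 d it was -0.53 ± 0.49 (adjusted p = 0.814). Uqcrc1 and Uqcrc2, the core proteins, differed by -0.073 ± 0.17 and 0.032 ± 0.38 at 4 d. Uqcrq, a small subunit next to cytochrome b, had 5250.0 on the Norm array, 4678 and 4960.1 at 10 h, 7413 and 5932 at 2 d, 4259 and 4108 at 4 d and 4772 and 5051 at 6 d. Uqcrq was highest in the 2 d samples, and the 2 d difference was 0.34 ± 0.19 (adjusted p = 0.389). The B probe set of Uqcrc1 was higher at 2 d by 0.57 ± 0.16 (adjusted p = 0.0978), while the A probe set differed by 0.044 ± 0.17.

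Complex IV, cytochrome c oxidase, had a median of 0.26 at 2 d, with 11 of 14 tested genes higher than Norm. It was the largest of the 5 complexes with the probe sets used, but complex II was higher with quantile normalization (0.21 for complex II and 0.17 for complex IV) and with plain probe sets only (0.20 for complex II and 0.11 for complex IV, over 9 genes). At 10 h the median was -0.082, at 4 d -0.078 and at 6 d 0.014. No gene passed the test against Norm. Cox5a, one of the subunits that surround the catalytic core, had 13747 and 15301 on the Norm arrays, 14139 and 14102 at 10 h, 20234 and 17975 at 2 d, 15225 and 13098 at 4 d and 17858 and 15998 at 6 d on the C arrays. Both 2 d samples were above all others, and the difference from Norm was 0.39 ± 0.17 (adjusted p = 0.254). Cox5b, the zinc-binding subunit, had 2547 on the Norm array, 2139 and 2596 at 10 h, 3218 and 2557 at 2 d, 1737 and 1309.7 at 4 d and 2359.7 and 2981 at 6 d. Both 4 d samples of Cox5b were the lowest, and the difference at 4 d was -0.76 ± 0.25 (adjusted p = 0.699), the smallest adjusted p of the members at 4 d.

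Cox6a1, the form of subunit VIa in most tissues, had 9973 on the Norm array, 9004 and 10234 at 10 h, 15959.9 and 15533 at 2 d, 9658 and 10444 at 4 d and 9362 and 8093 at 6 d on the A arrays. On the B arrays, Cox6a1 had 956 and 553 on the Norm arrays, 789 and 689 at 10 h, 1209 and 1336 at 2 d, 606 and 791 at 4 d and 838 and 900.2 at 6 d. Both probe sets were highest in the 2 d samples, and the differences from Norm were 0.66 ± 0.23 and 0.81 ± 0.28 (adjusted p = 0.165 and 0.165). Both carry suffixes for probes shared among related sequences. Cox6b1, the ubiquitous subunit VIb, had 345 on the Norm array, 345 and 405 at 10 h, 461 and 657 at 2 d, 401 and 524 at 4 d and 617 and 533 at 6 d. Both 6 d samples were above the Norm and 10 h arrays and overlapped with 2 d. The 6 d difference was 0.73 ± 0.35 (adjusted p = 0.588). Cox6b2 and Cox7b2, isoforms known from testis, differed from Norm at 2 d by 0.43 ± 0.30 and 0.81 ± 0.31 (adjusted p = 0.482 and 0.199). Cox7b2 stood at 0.28 at 10 h, 0.47 at 4 d and 0.59 at 6 d.

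Cox4i1, the ubiquitous form of the subunit that regulates the oxidase, gave differing answers. Its plain probe set had 343 on the Norm array, 289 and 369 at 10 h, 302 and 472 at 2 d, 389.6 and 174 at 4 d and 396 and 358 at 6 d and differed at 2 d by 0.14 ± 0.39, with 1 of the 2 samples below Norm. The other A probe set and the B probe set, both with suffixes for shared probes, were higher at 2 d by 1.06 ± 0.41 and 0.72 ± 0.30 (adjusted p = 0.214 and 0.233). Cox7a2 had 4793 on the Norm array, 5197 and 5472 at 10 h, 5329 and 4604 at 2 d, 5371 and 3777 at 4 d and 4149 and 3974 at 6 d on the A arrays, a difference of 0.047 ± 0.23 at 2 d. Its C probe set, whose suffix is not a plain one, had 1315 and 2434 on the Norm arrays, 1475 and 1462 at 10 h, 810.1 and 749 at 2 d, 1614 and 1892 at 4 d and 774 and 1086 at 6 d. At 2 d it differed by -1.20 ± 0.31 (adjusted p = 0.0804), the smallest adjusted p of any member against Norm. Cox7a2l, which helps to join complexes into supercomplexes, differed by -0.17 ± 0.18 at 10 h, -0.25 ± 0.18 at 2 d, -0.18 ± 0.18 at 4 d and -0.28 ± 0.18 at 6 d. The probe set annotated as Cox8a, the form of most tissues, stayed under the floor on all 9 A arrays (26.5 to 94.9). The brighter probe set annotated as Cox8c had 2406 on the Norm array, 2065 and 2291 at 10 h, 2407 and 2799 at 2 d, 2464 and 1552 at 4 d and 2144 and 2284 at 6 d. Cox8c is known from testis, and whether the annotation names the transcript that these probes bind was not tested.

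**Figure D3:**
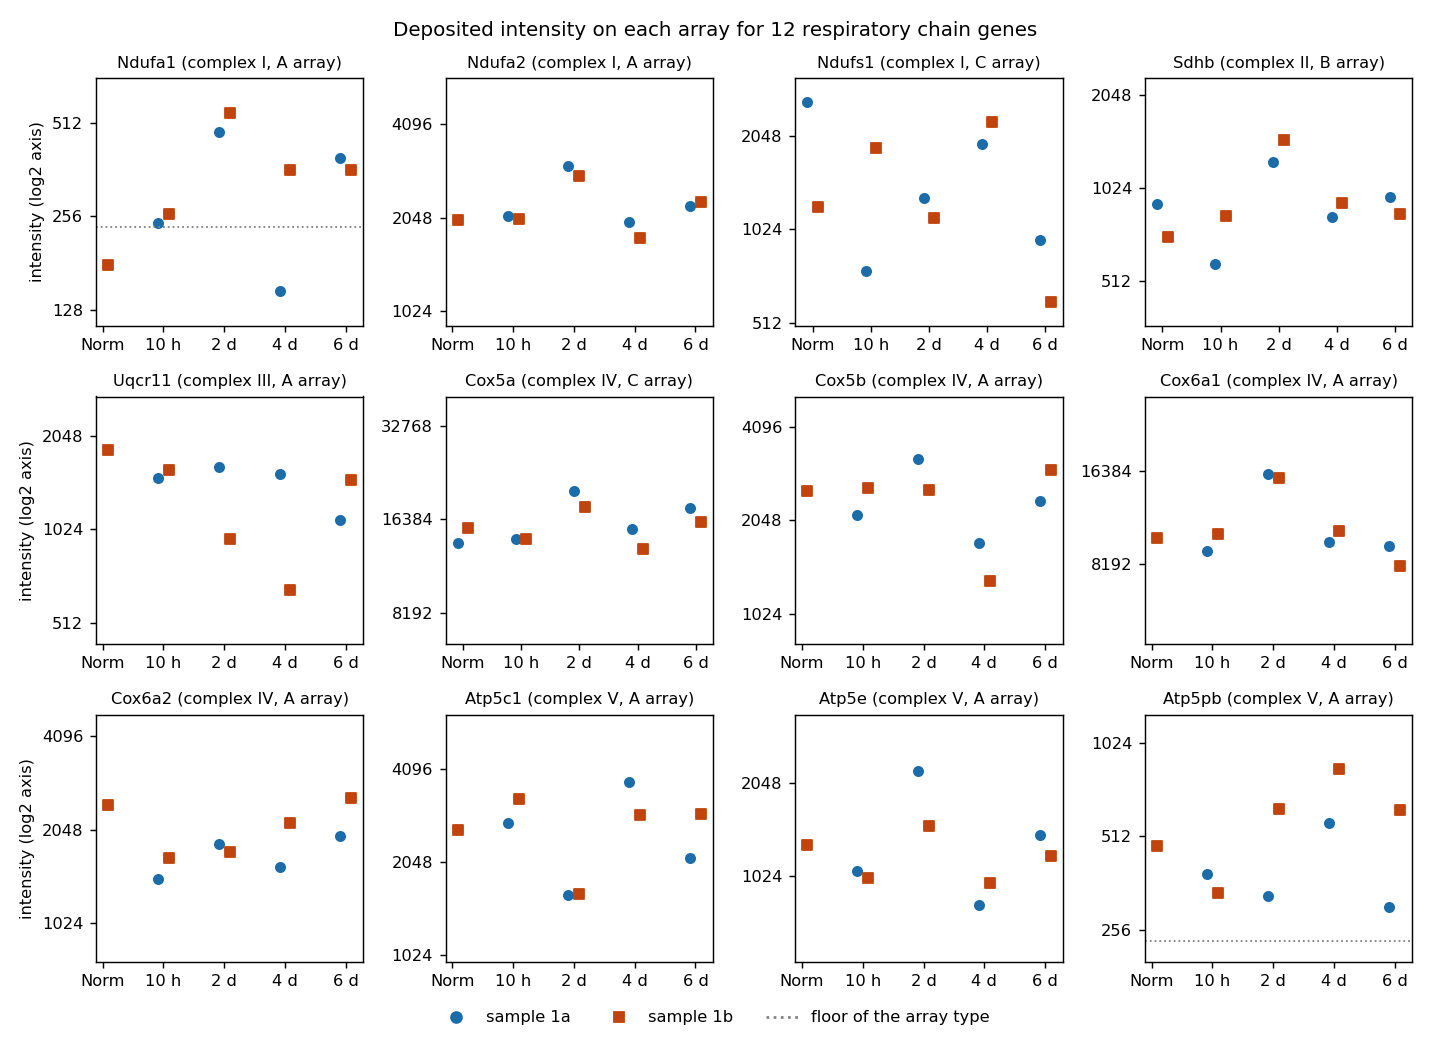
Deposited intensity (vertical axis, log scale) of 12 respiratory chain genes by sample, from Norm to 6 d; circles are samples 1a, squares samples 1b, and dotted lines the floor of the array type. Cox6a1 and Ndufa2 are highest in both 2 d samples, and Atp5c1 is lowest there.

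The muscle isoforms of complex IV were lower than Norm at 10 h, though none passed the test. Cox6a2, the heart and skeletal muscle form of subunit VIa, had 2457 on the Norm array, 1427 and 1666 at 10 h, 1842 and 1741 at 2 d, 1556 and 2153 at 4 d and 1956 and 2602 at 6 d. Both 10 h samples were below the Norm array, with a difference of -0.67 ± 0.25 (adjusted p = 0.737), while sample 6 d 1b was above it. At 2 d it was -0.46 ± 0.25 (adjusted p = 0.380). Cox8b, the muscle form of subunit VIII, had 805 on the Norm array, 399 and 471 at 10 h, 701 and 773 at 2 d, 419.9 and 545 at 4 d and 710.5 and 528 at 6 d by its brighter probe set. Both 10 h samples were again below Norm, with a difference of -0.89 ± 0.33 (adjusted p = 0.734). By its other probe set Cox8b was under the floor in every sample except the Norm array (252) and sample 4 d 1b (432). Cox7a1, the muscle form of subunit VIIa, was under the floor on every array, with 217 on the Norm array and 91.9 to 174 on the others.

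The sums of the muscle markers were also highest on the Norm array, though not every marker was. The summed intensity of 13 skeletal muscle genes was 2349.5 and 2645 at 10 h, 4477 and 5059 at 2 d, 6419.8 and 10534 at 4 d and 4504 and 4799.5 at 6 d, against 11942 on the Norm array. Acta1, skeletal muscle actin, made up 80.1 and 26.8 of it at 10 h, 801 and 1060 at 2 d, 1700 and 3941 at 4 d and 915 and 1160 at 6 d, against 6076 on the Norm array. Actc1, cardiac actin, went the other way, with 9365 and 10684 at 10 h against 7029 on the Norm array. Of the 14 tested skeletal muscle genes 10 were lower than Norm at 10 h and 9 at 2 d, where 2 passed the test, while 8 were higher at 4 d (median 0.090). 10 of the 15 tested heart muscle genes were lower than Norm at 10 h and 13 of 15 at 2 d, where 4 passed the test. Of all 13039 tested genes, 203 passed at 2 d against Norm. Actn2, Myl2 and Myl3 of the heart list, Myh2 and Tnni2 of the skeletal list, and Ucp1, Elovl3 and Pparg of the brown fat list were not above the floor on 2 arrays. The Norm array was thus the highest of the A arrays in the sums of both muscle lists and in the brighter probe set of Cox8b. The part of muscle tissue in these values was not tested.

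**Figure D4:**
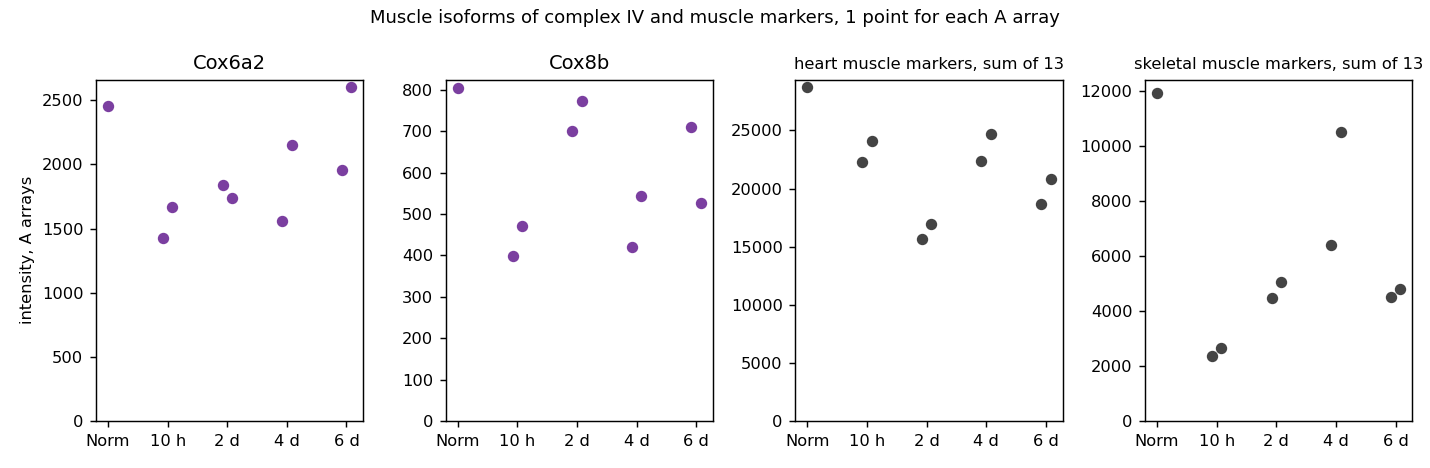
Intensity of the muscle isoforms Cox6a2 and Cox8b (brighter probe set) of complex IV and summed intensity of heart and skeletal muscle markers on the A arrays (vertical axes) by sample, from Norm to 6 d; each point is 1 array. The Norm array is the highest in both marker sums, 28708 for heart and 11942 for skeletal muscle.

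Complex V, the ATP synthase, had 14 tested genes and medians of -0.032 at 10 h, 0.085 at 2 d, 0.033 at 4 d and -0.035 at 6 d. Without Norm 1b, which leaves 3 genes, the median was -0.13 at 2 d and 0.30 at 4 d, and without 4 d 1a it was -0.066 at 4 d. With B and C arrays only it was -0.33 at 2 d. Atp5c1, the gamma subunit that turns inside the catalytic head, had 2589 on the Norm array, 2740.4 and 3264 at 10 h, 1609 and 1613 at 2 d, 3714 and 2901 at 4 d and 2110.5 and 2922 at 6 d. Both 2 d samples were below every other sample, with a difference from Norm of -0.68 ± 0.24 (adjusted p = 0.177). The second probe set of Atp5c1 differed by -0.58 ± 0.22 at 2 d (adjusted p = 0.206), in the same direction. Atp5e, the epsilon subunit of the same rotating stalk, had 1289.9 on the Norm array, 1061 and 1009 at 10 h, 2231 and 1484 at 2 d, 827 and 972 at 4 d and 1395 and 1192 at 6 d. Both 2 d samples were above all others and both 4 d samples below all others. Its difference from Norm, by a probe set whose suffix is not a plain one, was 0.50 ± 0.27 at 2 d and -0.52 ± 0.27 at 4 d (adjusted p = 0.375 and 0.867). The gamma and epsilon subunits thus lay on opposite sides of Norm at 2 d.

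Atp5d, the delta subunit of the stalk, was read by 5 tested probe sets and stood at -0.48 at 10 h by the one that stands for it, with 407 on the Norm array, 228 and 358 at 10 h, 420.3 and 616 at 2 d, 458 and 160.0 at 4 d and 533 and 289.9 at 6 d. Atp5pb, a subunit of the stationary stalk, had 476 on the Norm array, 386 and 337 at 10 h, 329 and 625 at 2 d, 563 and 843 at 4 d and 302 and 620.3 at 6 d. The samples of a group lay far apart at 2 d and at 6 d, and the 4 d difference was 0.53 ± 0.53 (adjusted p = 0.910). Atp5k, which helps the enzyme to form dimers, differed by 0.45 ± 0.46 at 10 h, with 198 and 454 in the 2 samples. Of the genes of the c subunit, which forms the rotating ring, Atp5g1 differed by 0.51 ± 0.35 at 2 d and 0.41 ± 0.35 at 6 d. The plain probe set of Atp5g2 was near the floor, and its brighter A probe set differed by 0.11 ± 0.32 at 2 d.

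Comparisons between times of hypoxia do not use the Norm arrays. Between 4 d and 10 h no member passed the test, with 5 of 115 probe sets (4.35%) at an unadjusted p under 0.05, against 8.08% of all and 0.0233% called after adjustment. The median difference was 0.0091, and 40 of 77 genes were higher at 4 d. Atp5pb was higher by 0.93 ± 0.43 (adjusted p = 0.642) and Ndufs1 by 0.82 ± 0.47 on C, while Ndufb3 and Ndufb9 were higher by 0.59 and 0.53. Ndufaf6 was at -0.80 ± 0.41 and Cox5b at -0.64 ± 0.21 (adjusted p = 0.471), and the assembly factor Ndufaf3 stood at -0.40. Uqcr11 stood at -0.62 ± 0.40, and at 0.0023 without sample 4 d 1b. Without 4 d 1a, the dimmer probe set of Cox8b passed with a difference of at least 0.87 (adjusted p = 0.0476), where it rests on the single array 4 d 1b.

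Between 6 d and 2 d, 55 of 77 genes were lower at 6 d, with a median of -0.15. No member passed the test, and 13 probe sets (11.3%) had an unadjusted p under 0.05, against 13% of all and 0.062% called after adjustment. All 5 complexes had a median below 0, from -0.19 in complex IV to -0.11 in complex V. Cox6a1 had 9362 and 8093 at 6 d, against 15959.9 and 15533 at 2 d. The difference was -0.86 ± 0.18 with the smallest adjusted p of the members, 0.120. The assembly factor Ndufaf8 differed by -0.70 ± 0.20 (adjusted p = 0.188) and Ndufaf6 by -1.10 ± 0.41 (adjusted p = 0.294), and Ndufs1 stood at -0.67 on C. Atp5c1 went the other way, at 0.62 ± 0.20 (adjusted p = 0.230), with Cox6a2 at 0.33, Ndufb8 at 0.25 and Atp5j, a subunit of the stationary stalk, at 0.16.

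Comparisons of 2 d with 10 h and of 4 d with 2 d were added after the counts of the comparisons above were seen. Both set the 2 d arrays, with their high 3' to 5' ratios, against arrays without them. Between 2 d and 10 h, 2 of 115 member probe sets passed the test, against 5.44% of all tested probe sets, and at an unadjusted p under 0.05 23 of the 115 did, against 23.2% of all. Between 4 d and 2 d, 5 of 115 passed, against 3.94% of all, and 20 (17.4%) had an unadjusted p under 0.05 against 22% of all. The median of the 77 genes was 0.22 between 2 d and 10 h, where 54 were higher at 2 d, and -0.14 between 4 d and 2 d, where 55 were lower at 4 d. These comparisons share the 2 d arrays, so opposite signs in them are no independent evidence.

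Atp5c1 (chr2:10056030-10080510, coordinates here in GRCm38.p6) fell at 2 d, with 1609 and 1613 at 2 d against 2740.4 and 3264 at 10 h, a log2 difference of -0.89 ± 0.20 (limma adjusted p = 0.0411). It rose between 2 d and 4 d, with 3714 and 2901 at 4 d and a difference of 1.03 ± 0.20 (adjusted p = 0.0329). Its second probe set differed by -0.38 ± 0.18 and 0.45 ± 0.18 in the same comparisons, neither past the threshold. Ndufa1 (chrX:37187588-37191238) rose at 2 d, with 479 and 550.0 at 2 d against 243 and 259 at 10 h, a difference of 1.03 ± 0.24 (adjusted p = 0.0487). Its other probe set was under the floor on all 9 arrays. Sdhb on B and Atp5e were next, higher at 2 d than at 10 h by 0.95 ± 0.24 (adjusted p = 0.0539) and 0.81 ± 0.22 (adjusted p = 0.0732), and Atp5d stood at 0.81. Sdhb passed in 6 other settings (adjusted p = 0.0353 to 0.0486), by this probe set only. On the other side were the assembly factors Ndufaf6 at -0.58, Ndufaf4 at -0.54 and Ndufaf3 at -0.35, none past the threshold.

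Atp5e (chr2:174461075-174464101) fell at 4 d, with 827 and 972 at 4 d against 2231 and 1484 at 2 d, a difference of -1.02 ± 0.22 (adjusted p = 0.0453). Cox5b (chr1:36691487-36693388) fell as well, with 1737 and 1309.7 at 4 d against 3218 and 2557 at 2 d, a difference of -0.93 ± 0.21 (adjusted p = 0.0488). Ndufa2 and Ndufa3 (chr7:3617347-3620165), whose values stand above, also fell at 4 d, with differences of -0.64 ± 0.13 (adjusted p = 0.0406) and -0.75 ± 0.17 (adjusted p = 0.0480). The other probe set of Ndufa3 differed by -0.067 ± 0.27. The called probe set of Ndufa3 carries a suffix for probes shared among related sequences, and the suffix of the called Atp5e probe set is not a plain one. Without passing the test, Ndufa1 stood at -0.81, Ndufs1 on C at 0.80, Atp5pb at 0.60 and Atp5j2, a small subunit of the membrane part, at 0.63 between 4 d and 2 d. Each of these 7 calls was lost under 12 to 15 of 19 other settings with no change of sign. All 7 were lost when any single 10 h, 2 d or 6 d sample was left out. The highest adjusted p among those settings lay between 0.153 and 0.261. Other members passed between 4 d and 2 d in some settings, without a Norm or 4 d sample among them: Uqcrq at -0.66 and Ndufb2 at -0.69 in 3 each, Cox7a2 on C at 1.17 in 2, and Ndufs1, Ndufa1, Ndufa8 and Cox8b in 1 each.

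Probe sets of one gene often disagreed. 28 of the 77 genes had several tested probe sets. Among these 28, the probe sets had opposite signs in 17 genes at 10 h, 11 at 2 d, 18 at 4 d and 14 at 6 d against Norm. They lay over 1 log2 unit apart for Ndufa6 and Ndufb6 at 10 h, for Cox7a2, Ndufb6 and Ndufs1 at 2 d, for Cox4i1, Cox8b, Ndufa6 and Ndufb6 at 4 d, and for Ndufb6 and Ndufs1 at 6 d. The same held between 4 d and 2 d for Atp5d, Cox7a2, Cox8b, Ndufb2 and Ndufs1. The median spread between probe sets of a gene was 0.42 at 10 h, 0.55 at 2 d, 0.40 at 4 d and 0.48 at 6 d, larger than the median difference of the genes at each time.

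Many respiratory chain genes are known to be controlled by nuclear respiratory factor 1 (NRF1), by ETS factors such as GABPA, which binds an ETS motif, and by YY1. RefSeq promoters of GRCm38.p6, 250 bases before to 50 after the start of the transcript, were at hand for 66 of the 80 genes (71 promoters). The NRF1 letters GCGCATGC stood on either strand in 11 of the 71 (15.5%), against 2.71% of all 32851 promoters of that length. The ETS letters CCGGAAG stood in 18 (25.4%) against 8.86%, and the YY1 letters AAGATGG in 10 (14.1%) against 6.34%. The letters TCAAGGTCA of the oestrogen-related receptors stood in 1 (1.41%) against 0.423%, and the short core ACGTG that hypoxia-inducible factors bind in 19 (26.8%) against 19.6%. 5 promoters held both NRF1 and ETS letters (7.04%), against 171 of all (0.521%): those of Cox6a1, Sdhb, Uqcr11, Atp5k and Atp5l. A match describes the letters and is no evidence of binding.

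Stretches of 250 bases that end 25 after the start are shown, 5' to 3' on the strand of the gene, for 4 of the genes with both motifs and for the muscle gene Cox8b, which has neither. Capitals mark NRF1 and ETS letters, with GCATGCGC and CTTCCGG being the same letters on the other strand. They lie at chr4:140961046-140961295, plus strand (Sdhb), chr5:115348934-115349183, minus strand (Cox6a1), chr5:108434375-108434624, minus strand (Atp5k), chr10:80406797-80407046, minus strand (Uqcr11) and chr7:140900422-140900671, minus strand (Cox8b).
Sdhb: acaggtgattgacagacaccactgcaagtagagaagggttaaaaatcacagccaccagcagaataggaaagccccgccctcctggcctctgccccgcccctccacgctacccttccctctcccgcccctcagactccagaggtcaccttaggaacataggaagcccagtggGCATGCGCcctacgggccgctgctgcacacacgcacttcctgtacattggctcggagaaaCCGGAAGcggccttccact
Cox6a1: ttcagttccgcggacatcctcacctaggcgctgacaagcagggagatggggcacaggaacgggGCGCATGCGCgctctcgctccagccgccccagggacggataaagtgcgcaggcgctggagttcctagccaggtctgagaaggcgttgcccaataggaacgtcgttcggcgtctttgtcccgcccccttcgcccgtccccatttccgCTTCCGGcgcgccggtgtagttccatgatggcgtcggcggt
Atp5k: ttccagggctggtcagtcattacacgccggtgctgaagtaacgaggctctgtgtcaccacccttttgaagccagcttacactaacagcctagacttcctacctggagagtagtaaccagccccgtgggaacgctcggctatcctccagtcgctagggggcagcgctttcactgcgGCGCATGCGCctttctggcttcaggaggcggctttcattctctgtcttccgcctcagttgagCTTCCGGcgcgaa
Uqcr11: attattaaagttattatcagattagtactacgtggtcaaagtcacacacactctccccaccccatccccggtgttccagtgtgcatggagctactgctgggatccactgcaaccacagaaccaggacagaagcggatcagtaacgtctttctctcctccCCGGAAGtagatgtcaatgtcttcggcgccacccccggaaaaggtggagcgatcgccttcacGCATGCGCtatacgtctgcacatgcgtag
Cox8b: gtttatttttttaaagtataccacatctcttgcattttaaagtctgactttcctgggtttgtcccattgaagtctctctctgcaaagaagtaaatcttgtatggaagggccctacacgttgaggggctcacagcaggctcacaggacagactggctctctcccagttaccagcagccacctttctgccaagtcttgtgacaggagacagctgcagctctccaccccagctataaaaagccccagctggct
In Cox6a1 and Atp5k the NRF1 letters overlap with their own reverse in GCGCATGCGC.

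The 4 genes shown with both motifs had different patterns. Cox6a1 and Sdhb were highest at 2 d, Uqcr11 differed at 2 d by -0.57 ± 0.49 and Atp5k by 0.46 ± 0.46, none past the threshold against Norm. Of the tested genes with a promoter, 23 had NRF1 or ETS letters and 40 had neither. At 2 d the 23 had a median of 0.14 with 17 higher than Norm, and the 40 a median of 0.027 with 21 higher. Between 4 d and 2 d the medians were -0.30 with the letters and -0.10 without. Between 2 d and 10 h they were 0.17 and 0.18, and at 4 d against Norm -0.073 and -0.074. These are descriptions, and the difference between promoters with and without the letters was not tested.

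Other genes of mitochondrial energy metabolism are set beside the chain by lists. The 22 tested assembly factors outside the Nduf names, such as Surf1 and Sco1, had a median of 0.22 at 2 d, with 16 higher than Norm. The 69 genes of the mitochondrial ribosome stood at 0.11 (46 higher). The 39 of the cytosolic ribosome stood at 0.13 (25 higher, 1 past the test, against 203 of all 13039 tested genes). The 2 d median of the respiratory chain was 0.13, so ribosomal genes of both kinds stood near it. The 17 genes of the citrate cycle and of pyruvate dehydrogenase had a median of -0.082, with 5 higher. Pdha1, a subunit of pyruvate dehydrogenase, differed by -0.72 ± 0.16 at 2 d (adjusted p = 0.0636). None of the 12 tested fatty acid oxidation genes was higher than Norm at 2 d, and their median was -0.43. Cpt1a, the gate for fatty acids into the mitochondrion, differed by -0.93 ± 0.20 and Hadhb, a subunit of the trifunctional protein, by -0.78 ± 0.17, both with an adjusted p of 0.0564, short of the threshold.

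In the added comparisons some of these genes passed the test, though not in a fit to the 2 groups alone. Beside the genes named below, the mitochondrial ribosome had 1 call between 2 d and 10 h and 2 between 4 d and 2 d. The cytosolic ribosome had 2 and 1. Of all 13039 tested genes, 670 passed between 2 d and 10 h and 472 between 4 d and 2 d. Between 2 d and 10 h Pdha1 fell by 0.62 ± 0.13 (adjusted p = 0.0371), Cpt1a by 0.82 ± 0.16 (adjusted p = 0.0302) and Hadhb by 0.58 ± 0.14 (adjusted p = 0.0470). Between 4 d and 2 d Suclg1, a subunit of succinyl-CoA ligase, rose by 0.77 ± 0.15 (adjusted p = 0.0333), Hadhb by 0.75 ± 0.14 (adjusted p = 0.0277) and Cpt1a by 0.77 ± 0.16 (adjusted p = 0.0409). All 8 tested genes of a list of targets of hypoxia-inducible factors that act on the mitochondrion or on glucose were higher than Norm at 10 h, with a median of 0.29. None passed the test. Bnip3, a mitophagy receptor, differed by 1.06 ± 0.31 (adjusted p = 0.585) and Ldha, lactate dehydrogenase, by 0.59 ± 0.35. The median of this list was 0.098 at 2 d, 0.17 at 4 d and 0.011 at 6 d. The 13 tested regulators of mitochondrial gene expression had medians between -0.12 and 0.035 at the 4 times. The 7 tested carriers and channels of the mitochondrial membranes had a median of 0.31 at 2 d, and of the cytochrome c list 2 genes were tested, with a median of 0.0054 at 2 d.

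**Figure D5:**
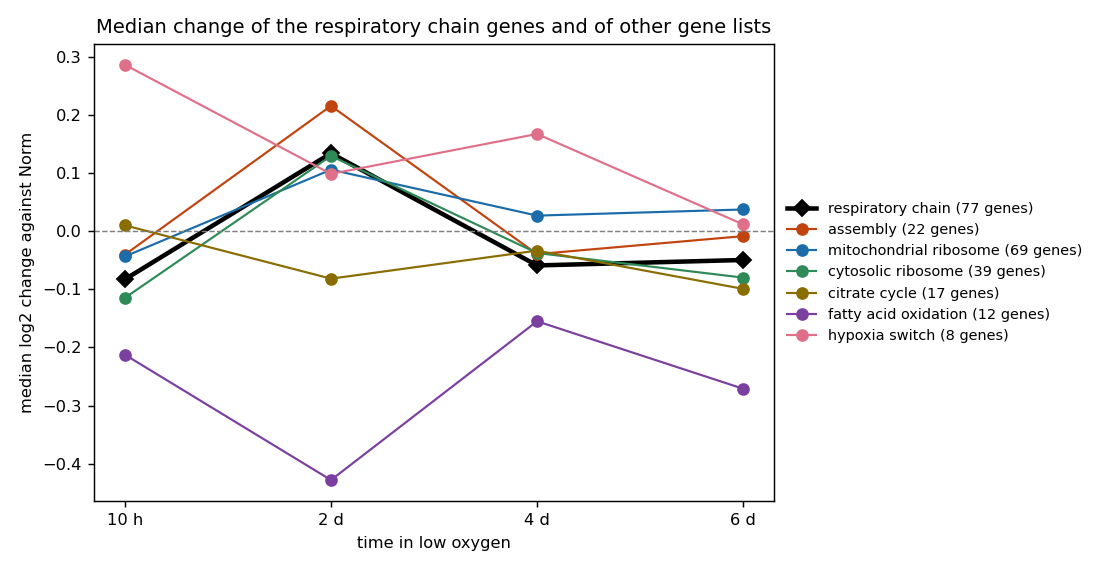
Median difference from Norm (log2) of the respiratory chain and of other lists of mitochondrial and ribosomal genes at 10 h, 2 d, 4 d and 6 d. At 2 d the fatty acid oxidation list is the lowest of the lists at -0.43, and the respiratory chain stands at 0.13.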

How the data were processed

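RNA of 5 groups of mouse lung was measured on 3 array types, per the labels. The authors deposited 1 linear intensity per probe set and array, made with software that is not named in the sources used here. Leaving out 2% of values at each end, array means ranged from 800.2 to 800.4, so the values were taken as already scaled. 29 arrays were used and 1 was left out, since its values stand in the table of another array type. Samples were grouped by their titles.

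Intensities were floored at the 40th percentile of their array type (236.05 for A, 297.36 for B, 200.93 for C) before log2. A probe set was tested if at least 2 arrays exceeded the floor, which held for 25801. limma 3.58.1 in R 4.3.3 fitted 5 group means per array type (lmFit, eBayes with a variance trend, two-sided), and Benjamini-Hochberg adjustment pooled the 3 types at a threshold of 0.05. For A probe sets the single Norm array is assumed to vary as the other groups do. "At least" marks a difference from a group under the floor. Each gene was represented by 1 probe set, a plain suffix before any other suffix, then the highest mean level. Genes were named where a probe set passed the test, where they were among the 4 largest rises or falls of a comparison, as isoform sets, as complex II subunits, or where probe sets lay over 1 log2 unit apart. Cox5a, Uqcrc1, Uqcrc2, Uqcrq and Ndufa8 were added after their values were seen. Gene symbols came from the platform annotation, and positions from GRCm38.p6. Figures were drawn with matplotlib 3.10.9 in Python 3.11.15. Steps were checked on simulated data.

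The members and the lists were chosen with earlier results of these data known. Same-lettered samples deviated together in 1 of 26 pairs (correlations -0.156 to 0.135), and letters were not taken to pair samples. Differences between the letters barely agreed between array types either, so these correlations could not decide whether samples were paired. 24 other settings were tried. The number of arrays limits the precision.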

Additional observations from a re-analysis of the deposited data

Results flagged for a closer look

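Both 2 d samples had a higher median of the respiratory chain genes than both 10 h samples, and both 6 d samples a lower one than both 2 d samples. The mean sample medians differed by 0.18 on the log2 scale between 2 d and 10 h, and by -0.13 between 6 d and 2 d. These differences of medians were not tested. The 2 d arrays carried Gapdh 3' to 5' ratios of 3.64 to 4.60, against 0.786 to 1.68 elsewhere, and the part of RNA quality was not tested.

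7 single changes between times passed the test in comparisons that were added after other results were seen. Between 2 d and 10 h these were Atp5c1 at -0.89 and Ndufa1 at 1.03. They are 2 of 115 member probe sets, against 5.44% of all tested probe sets. Between 4 d and 2 d they were Atp5c1 at 1.03, Atp5e at -1.02, Cox5b at -0.93, Ndufa2 at -0.64 and Ndufa3 at -0.75. They are 5 of 115, against 3.94% of all. Each of the 7 calls was lost under 12 to 15 of 19 other settings. All 7 involve the 2 d arrays. That of Ndufa3 comes from a probe set with a suffix for shared probes, and that of Atp5e from one whose suffix is not plain.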

How the results depend on the processing

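With 2 arrays a group, and 1 Norm array for A probe sets, the median 95% interval of a member was 0.57 log2 units to each side against Norm. A fit to 2 groups alone made no call in any comparison. Quantile normalization, and the choice of probe set, moved no count of calls and no median over all members past its limit, but did move medians of single complexes, among them the 2 d median of complex IV. Over 5 complexes, 8 comparisons and all settings that gave a value, 151 values of a complex median moved by more than the spread between samples, and 777 did not.

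Beside the main counts of all calls (0, 480, 2 and 0 for 10 h, 2 d, 4 d and 6 d against Norm, 6 for 4 d against 10 h, 16 for 6 d against 2 d, 1404 for 2 d against 10 h and 1017 for 4 d against 2 d) these values moved. With the floor at the 20th percentile, all calls numbered 2 for 10 h against Norm and 7 for 6 d against 2 d, and member calls 1 for 2 d against 10 h and 2 for 4 d against 2 d. With no filter on dim probe sets, all calls numbered 73 for 10 h against Norm, 61 for 4 d against Norm, 63 for 6 d against Norm, 50 for 4 d against 10 h, 100 for 6 d against 2 d, 648 for 2 d against 10 h and 480 for 4 d against 2 d, and member calls 0 for 2 d against 10 h and 1 for 4 d against 2 d. With 5 arrays above the floor, all calls numbered 2 for 10 h against Norm, 4 for 4 d against Norm, 3 for 6 d against Norm and 21 for 4 d against 10 h. With median scaling, all calls numbered 1 for 10 h against Norm, member calls 1 for 2 d against 10 h and 1 for 4 d against 2 d, and member medians were -0.19 for 4 d against Norm, -0.14 for 6 d against Norm and -0.24 for 4 d against 2 d. With no variance trend, all calls numbered 319 for 2 d against Norm and 0 for 6 d against 2 d, and member calls 1 for 2 d against 10 h and 0 for 4 d against 2 d. With adjustment within an array type, all calls numbered 1 for 10 h against Norm, 733 for 2 d against Norm, 12 for 4 d against 10 h and 91 for 6 d against 2 d, and member calls 1 for 4 d against 2 d. With only the 2 groups compared in the fit, all calls numbered 0 for 2 d against Norm, 0 for 4 d against Norm, 0 for 4 d against 10 h, 0 for 6 d against 2 d, 0 for 2 d against 10 h and 0 for 4 d against 2 d, and member calls 0 for 2 d against 10 h and 0 for 4 d against 2 d. With the letter as a replicate block, all calls numbered 217 for 2 d against Norm, 2 for 6 d against 2 d and 671 for 4 d against 2 d, and member calls 0 for 2 d against 10 h and 2 for 4 d against 2 d. Without the 2 d arrays, all calls numbered 3 for 4 d against 10 h. With B and C arrays only, all calls numbered 3 for 4 d against 10 h, member calls 1 for 2 d against 10 h and 0 for 4 d against 2 d, and member medians were -0.0048 for 10 h against Norm, 0.27 for 2 d against Norm, 0.0041 for 4 d against Norm, 0.029 for 6 d against Norm and -0.28 for 4 d against 2 d. As single samples were left out, all calls ranged 0 to 8 for 10 h against Norm, 16 to 448 for 2 d against Norm, 1 to 8 for 4 d against Norm, 0 to 2 for 6 d against Norm, 3 to 115 for 4 d against 10 h, 0 to 32 for 6 d against 2 d, 95 to 1834 for 2 d against 10 h and 119 to 1421 for 4 d against 2 d. Member calls ranged 0 to 1 for 2 d against Norm, 0 to 1 for 4 d against 10 h, 0 to 4 for 2 d against 10 h and 0 to 8 for 4 d against 2 d, and were 0 for the other comparisons. Member medians ranged -0.090 to -0.040 for 10 h against Norm, 0.028 to 0.15 for 2 d against Norm, -0.11 to 0.029 for 4 d against Norm, -0.071 to -0.050 for 6 d against Norm, -0.027 to 0.066 for 4 d against 10 h, -0.26 to -0.091 for 6 d against 2 d, 0.16 to 0.26 for 2 d against 10 h and -0.28 to -0.10 for 4 d against 2 d. With the mean of all probe sets, Ndufa6 reversed to -0.065 at 10 h and -0.027 at 4 d. With the brightest probe set, Sdhb reversed to -0.021 for 2 d against Norm and -0.020 for 2 d against 10 h. Ndufs1 at 10 h reversed to 0.062 without 10 h 1a (range -1.25 to 0.062 as samples were left out), Atp5k at 10 h to -0.010 without 10 h 1b (-0.010 to 0.92), Uqcr11 for 4 d against 10 h to 0.0023 without 4 d 1b (-1.24 to 0.0023), and Atp5j for 6 d against 2 d to -0.040 without 6 d 1a (-0.040 to 0.36). For the values that moved or reversed, the cause was not tested beyond what the setting itself changes.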
